A study of Homo sapiens with 8 samples.

Results

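The 10 genes described here are the transcription factors of the ATF4 branch of the stress response and their close regulators: ATF4, ATF3, ATF5, DDIT3, CEBPB, CEBPG, TRIB3, NUPR1, JDP2 and CREBRF. They were taken by gene symbol from the 58787 Ensembl gene identifiers of the deposited count table, and each symbol matched 1 identifier. RNA came from IMR32, an established human neuroblastoma line with amplified MYCN, recorded as wild type. Cells were held for 6 h either with CR31B at its IC50 (the concentration itself is not given in the sources used here) or with the vehicle, 0.1% DMSO. Each group has 4 libraries, numbered 1 to 4. The design text calls them biological replicates. Per the protocols, paired-end reads were used for replicate 1 of each group and single-end reads for the other 6 libraries. All results come from 1 cell line and 1 time point.

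ATF4 is a basic leucine zipper factor at the centre of the integrated stress response. When kinases that sense amino acid shortage, misfolded protein, viral RNA or heme loss phosphorylate eIF2alpha, bulk translation slows while the ATF4 mRNA, which carries short upstream reading frames, is translated more. ATF4 then pairs with C/EBP proteins on composite C/EBP-ATF response elements and switches on genes for amino acid supply, and also genes for further factors of the branch, several of which feed back on it. CR31B belongs to the rocaglates, which clamp the helicase eIF4A on mRNA and so act on translation itself. The values here are mRNA levels and hold no measure of ATF4 protein or of eIF2alpha phosphorylation.

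In replicates 2 to 4, 7 of these genes had higher mRNA with CR31B than with DMSO, none was lower, 2 did not pass the test and NUPR1 was too low to be tested. CEBPB, ATF3, TRIB3 and JDP2 rose by 2.03-fold to 2.46-fold, CEBPG by 1.56-fold, and ATF4 by 1.31-fold and DDIT3 by 1.29-fold. ATF5 and CREBRF did not pass the threshold of an adjusted p of 0.05. For the same 7 genes all 3 CR31B libraries lay above all 3 DMSO libraries, as in 27.8% of all tested genes. In replicate 1 these 7 genes were lower in the library labelled CR31B than in the library labelled DMSO. As labelled, with all 8 libraries in the fit, 0 of the 9 tested members passed, with Benjamini-Hochberg adjusted p from 0.707 to 0.86 in the quasi-likelihood test of edgeR, and none had an unadjusted p below 0.05.

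Those counts stand against broad differences in the whole table. As labelled, 0 of 16518 tested genes passed (0%) and 1.24% had an unadjusted p under 0.05. In replicates 2 to 4, 23.8% of 16696 tested genes were called higher and 17.6% lower with CR31B, and 1.99% were called higher by at least 2-fold. The share of higher genes among the calls was 57.5%, and 40% with upper quartile scaling or 43.1% with total count scaling. Without pair 4 the number of calls was 3981 in place of 6901. Total counts were 43687828 to 64715535 per library. Of the 6901 genes called in replicates 2 to 4, 98.9% had the opposite sign in replicate 1. Directions below follow the labels of replicates 2 to 4, and replicate 1 is given apart. All 10 neuroblastoma markers examined, HAND2 and DBH among them, were above 1 CPM (counts scaled for library size by TMM) in every library. Among the markers of blood, fibroblast, endothelial, epithelial and astrocyte cells only COL1A1 (16.7 to 30.5 CPM) exceeded 1 CPM, and CD3E, KRT5 and GFAP were at 0 in all 8. PTPRC, a blood cell marker at 0.24 to 0.882 CPM, differed by -0.87 on the log2 scale in replicates 2 to 4 (adjusted p = 0.0447, edgeR) and by 1.55 in replicate 1. Summed over the 4 blood markers the level was 0.292 to 0.899 CPM with CR31B and 0.289 to 0.859 CPM with DMSO, and the part of these cells in the results was not tested.

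**Figure D1:**
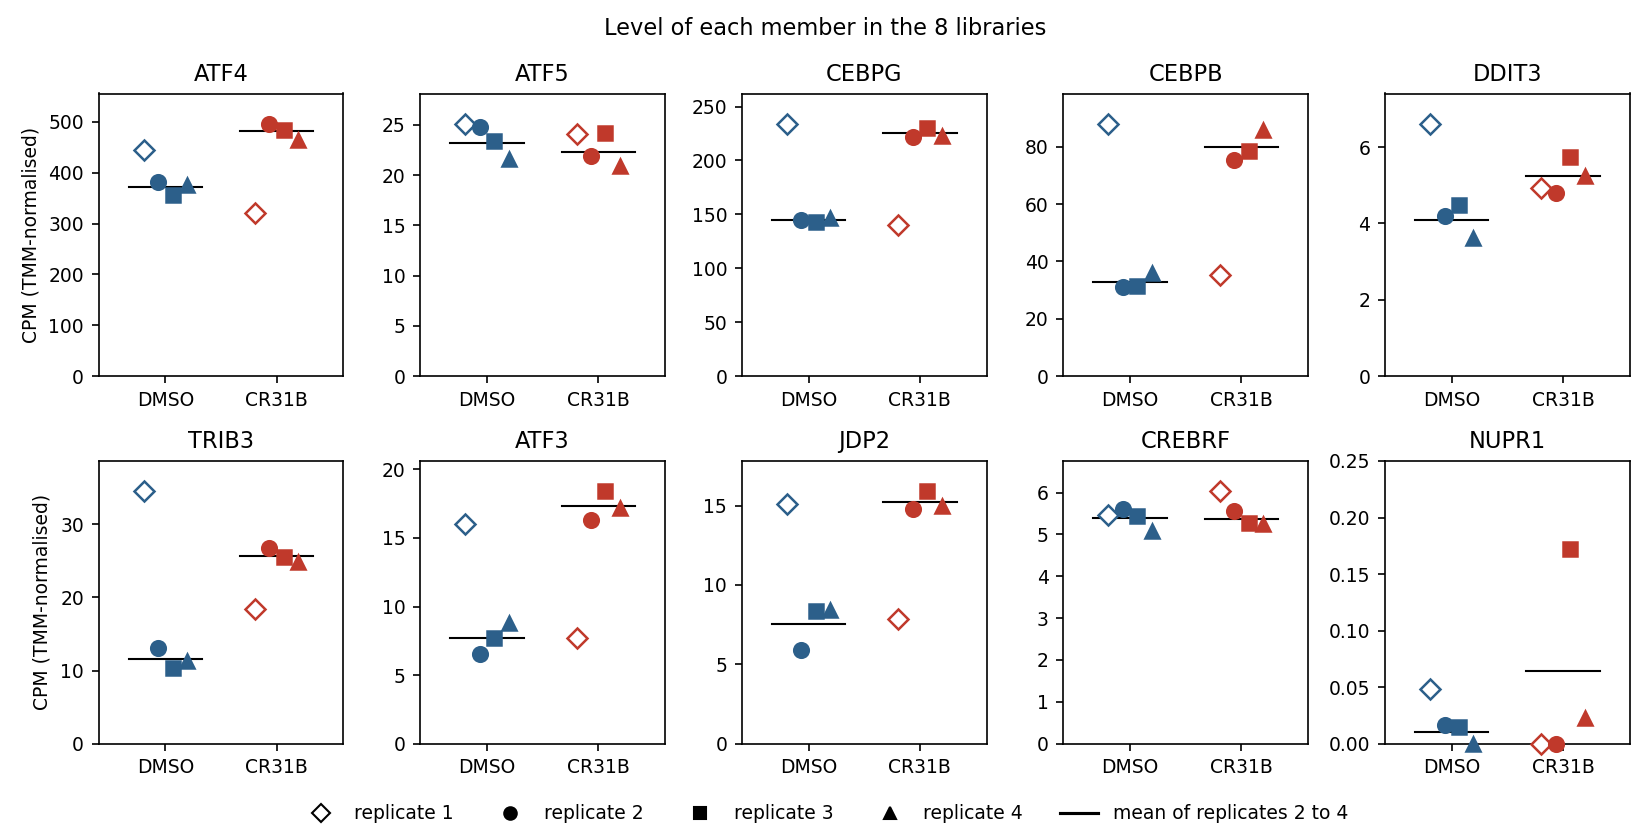
TMM-normalised CPM (vertical axes, linear from 0) of the 10 genes in each DMSO (blue) and CR31B (red) library, with replicate 1 as open diamonds and the mean of replicates 2 to 4 as a black line. In CEBPB the filled red points lie at 75.3 to 85.8 CPM and the filled blue points at 31.1 to 35.9 CPM, while the open diamonds lie at 35.2 CPM (CR31B) and 88 CPM (DMSO).

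ATF4 (ENSG00000128272, chromosome 22, 39519695 to 39522685, plus strand, GRCh38), the hub of the branch, was the most abundant of the 10. Its level with CR31B was 496, 484 and 464 CPM in replicates 2, 3 and 4, and 320 CPM in replicate 1. With DMSO it was 381, 356 and 375 CPM in replicates 2, 3 and 4, and 445 CPM in replicate 1. The 3 single-end CR31B libraries lay above all 3 single-end DMSO libraries, and the order was opposite in replicate 1. In replicates 2 to 4 ATF4 rose with a log2 fold change of 0.39 ± 0.052 (SE, n = 3 per group) (Benjamini-Hochberg adjusted p = 0.000203, edgeR).

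ATF5 (ENSG00000169136, chromosome 19, 49928702 to 49933935, plus strand) encodes a relative of ATF4 that is likewise controlled by upstream reading frames and guards mitochondrial function. It had 21.9, 24.2 and 20.9 CPM with CR31B and 24.8, 23.4 and 21.6 CPM with DMSO in replicates 2, 3 and 4. Replicate 1 had 24.1 CPM with CR31B and 25.1 CPM with DMSO, so the groups overlapped. The log2 fold change of ATF5 was -0.05 with a 95% interval from -0.22 to 0.13 and an adjusted p of 0.678 in replicates 2 to 4 (edgeR, Benjamini-Hochberg). A rise of the size seen in ATF4 lies outside that interval. In its exons 21.2% of bases lie opposite exons of IL4I1 and NUP62, and whether counting used strand is not given in the sources used here.

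Among the C/EBP partners, CEBPB (ENSG00000172216, chromosome 20, 50190734 to 50192689, plus strand), a single-exon gene for a factor of inflammation and stress programmes, had the highest fold change. It had 75.3, 78.5 and 85.8 CPM with CR31B and 31.1, 31.4 and 35.9 CPM with DMSO in replicates 2, 3 and 4. No single-end library of a group came near the other single-end group. The log2 fold change was 1.30 ± 0.075 (Benjamini-Hochberg adjusted p = 1.22e-06, edgeR). In replicate 1 CEBPB had 35.2 CPM in the library labelled CR31B and 88 CPM in the library labelled DMSO. Exons of the antisense gene CEBPB-AS1 lie opposite 11.8% of its bases.

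CEBPG (ENSG00000153879, chromosome 19, 33373330 to 33382686, plus strand) encodes a C/EBP protein without an activation domain of its own that works as a partner of ATF4. Its level was 222, 230 and 223 CPM with CR31B and 145, 143 and 147 CPM with DMSO in replicates 2, 3 and 4. The libraries of each group lay close together, with an SD of 4.04 CPM (CR31B, n = 3) and 1.77 CPM (DMSO, n = 3), and the groups stood apart. CEBPG rose with a log2 fold change of 0.64 ± 0.046 (Benjamini-Hochberg adjusted p = 3.89e-06, edgeR). Replicate 1 had 140 CPM with CR31B and 234 CPM with DMSO.

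DDIT3 (ENSG00000175197, chromosome 12, 57516588 to 57521737, minus strand) encodes CHOP, the C/EBP relative best known for promoting cell death under lasting stress. It was low, with 4.79, 5.75 and 5.23 CPM with CR31B and 4.2, 4.49 and 3.62 CPM with DMSO in replicates 2, 3 and 4. The single-end groups did not overlap, yet the gap between their lowest CR31B and their highest DMSO library was small. The log2 fold change was 0.37 ± 0.12 (Benjamini-Hochberg adjusted p = 0.0349, edgeR). The call was lost, with these log2 fold changes, without CR31B replicate 3 (0.295, adjusted p = 0.096), CR31B replicate 4 (0.371, 0.085), DMSO replicate 2 (0.383, 0.0715) or DMSO replicate 4 (0.298, 0.119), by the same test. It was also lost without pair 2 (0.45, adjusted p = 0.0549), pair 3 (0.349, 0.0775) or pair 4 (0.293, 0.235). Upper quartile scaling (adjusted p of 0.116) and total count scaling (0.104) also ended the call, while replicate number as a block kept it (0.0112). Replicate 1 had 4.94 CPM with CR31B, inside the range of the other CR31B libraries, and 6.61 CPM with DMSO, above all other libraries. Exons of the neighbours MARS1 (named MARS in the annotation) and MBD6 lie opposite 31.6% of the exonic bases of DDIT3, and without a known strand setting their reads cannot be told apart. MARS1 had 198 CPM with CR31B and 162 CPM with DMSO in replicates 2 to 4, a log2 fold change of 0.31, and -0.51 in pair 1. On the same strand, exons of AC022506.1 overlap 8.0% of the exonic bases of DDIT3. The part of these neighbours in the DDIT3 counts was not tested.

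TRIB3 (ENSG00000101255, chromosome 20, 362835 to 397559, plus strand) encodes a pseudokinase that is induced by ATF4 and CHOP and binds and restrains both. It had 26.8, 25.5 and 24.9 CPM with CR31B and 13.1, 10.4 and 11.3 CPM with DMSO in replicates 2, 3 and 4. The single-end groups stood well apart, and TRIB3 rose with a log2 fold change of 1.16 ± 0.09 (Benjamini-Hochberg adjusted p = 6.18e-06, edgeR). In replicate 1 TRIB3 had 18.4 CPM with CR31B, between the single-end groups, and 34.5 CPM with DMSO, above every other library.

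ATF3 (ENSG00000162772, chromosome 1, 212565334 to 212620777, plus strand) encodes an early stress factor that represses many promoters as a homodimer. Its level was 16.3, 18.4 and 17.2 CPM with CR31B and 6.53, 7.69 and 8.81 CPM with DMSO in replicates 2, 3 and 4. Each of these CR31B libraries lay far above each of these DMSO libraries. ATF3 rose with a log2 fold change of 1.19 ± 0.11 (Benjamini-Hochberg adjusted p = 1.92e-05, edgeR). Replicate 1 had 7.74 CPM with CR31B and 16 CPM with DMSO.

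JDP2 (ENSG00000140044, chromosome 14, 75427716 to 75474111, plus strand) encodes the closest relative of ATF3, a repressor that dimerises with JUN proteins. It had 14.8, 15.9 and 15 CPM with CR31B and 5.9, 8.33 and 8.44 CPM with DMSO in replicates 2, 3 and 4. DMSO replicate 2 was the lowest, and pair 2 therefore had the largest difference, 1.32 against 0.93 and 0.83 (log2) in pairs 3 and 4. JDP2 rose with a log2 fold change of 1.02 ± 0.13 (Benjamini-Hochberg adjusted p = 0.000126, edgeR). Replicate 1 had 7.87 CPM with CR31B and 15.1 CPM with DMSO.

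CREBRF (ENSG00000164463, chromosome 5, 173056352 to 173139284, plus strand) encodes a regulator that drives breakdown of the endoplasmic reticulum factor CREB3. It had 5.55, 5.27 and 5.25 CPM with CR31B and 5.61, 5.45 and 5.08 CPM with DMSO in replicates 2, 3 and 4. The groups overlapped, and the log2 fold change was 0.01 with a 95% interval from -0.21 to 0.22 (Benjamini-Hochberg adjusted p = 0.972, edgeR). With offsets for GC content and transcript length the CREBRF value was -0.25 with an adjusted p of 0.0749, and 0.0318 when replicate number was also a block, so a call that CREBRF fell rests on those settings together. Replicate 1 had 6.03 CPM with CR31B and 5.46 CPM with DMSO.

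NUPR1 (ENSG00000176046, chromosome 16, 28532708 to 28539174, minus strand), a small chromatin-binding stress protein induced downstream of ATF4 in many tissues, was near the limit of detection. The counts were 0, 0, 10 and 1 in CR31B replicates 1 to 4 and 2, 1, 1 and 0 in DMSO replicates 1 to 4. In each library except CR31B replicate 3 the count was under 3, the number that a count of 0 still allows (0.045 to 0.072 CPM, counting error only). No difference in NUPR1 was detectable at this depth.

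**Figure D2:**
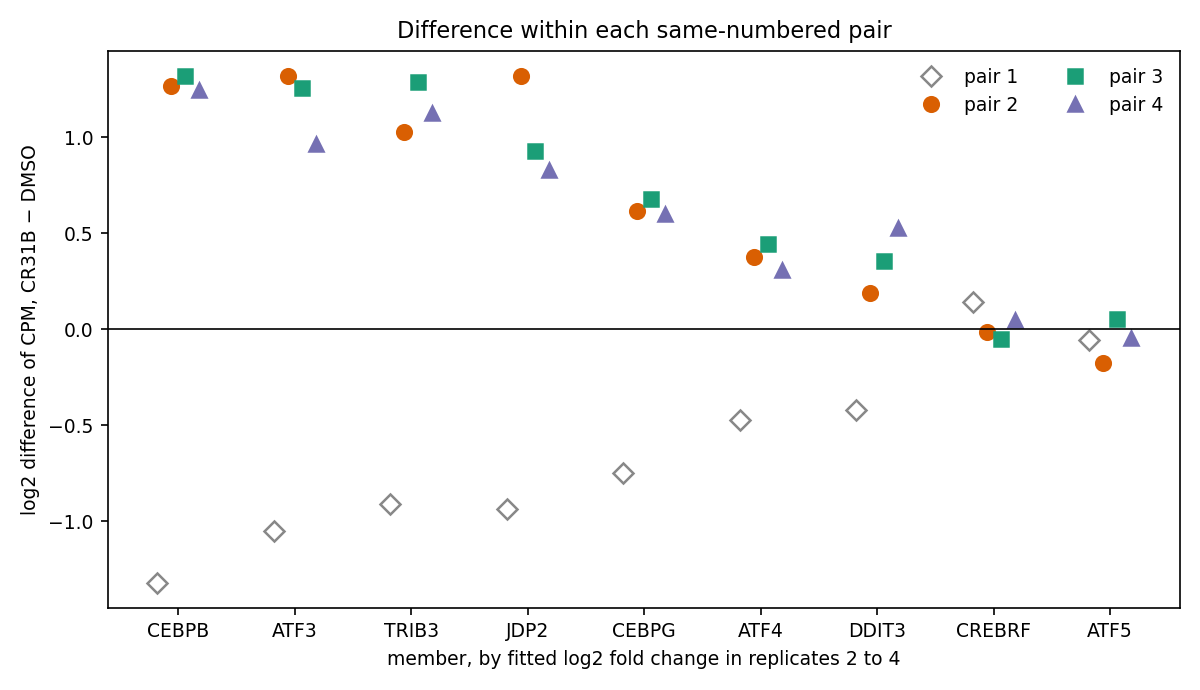
Log2 difference of CPM (vertical axis, CR31B minus DMSO, prior count of 1) within each same-numbered pair for the 9 tested genes, with pair 1 as open grey diamonds. Pairs 2 to 4 lie above 0 and pair 1 below 0 for CEBPB, ATF3, TRIB3, JDP2, CEBPG, ATF4 and DDIT3, and all pairs lie near 0 for CREBRF and ATF5.

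The pair differences sorted the rising genes into 3 steps that did not overlap. CEBPB, ATF3, TRIB3 and JDP2 lay between 0.83 and 1.32 on the log2 scale in pairs 2, 3 and 4. CEBPG lay between 0.60 and 0.68. ATF4 (0.31 to 0.44) and DDIT3 (0.19 to 0.53) shared the lowest step. Over all genes tested the median log2 fold change was -0.007 and the median of its absolute value 0.242. In a ranking of the 16696 tested genes from the highest fold change down, CEBPB stood at 137, ATF3 at 187, TRIB3 at 206 and JDP2 at 321, while ATF4 stood at 2862 and DDIT3 at 3045.

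Replicate 1 was set against the other pairs with an interaction term for treatment and layout, whose spread comes from the single-end libraries alone. Of the 9 tested members 7 passed an adjusted p of 0.05, where 42.5% of all tested genes did (edgeR, Benjamini-Hochberg). The largest differences of replicate 1 from the others were -2.60 ± 0.15 for CEBPB (adjusted p of 1.34e-06), -2.22 ± 0.23 for ATF3 (3.31e-05) and -2.06 ± 0.18 for TRIB3 (1.11e-05), all on the log2 scale. ATF5 (adjusted p of 0.991) and CREBRF (0.568) did not pass. The pair 1 differences were -1.32 for CEBPB, -1.05 for ATF3, -0.94 for JDP2, -0.91 for TRIB3, -0.75 for CEBPG, -0.47 for ATF4 and -0.42 for DDIT3, with no replicate check. For all 7 called members the library labelled DMSO replicate 1 was nearer to the mean of the single-end CR31B libraries than to that of the single-end DMSO libraries, on the log2 scale. The library labelled CR31B replicate 1 was nearer to the single-end DMSO mean for 5 of the 7, the exceptions being DDIT3 and TRIB3. These positions were not counted over all genes. Of all genes called in replicates 2 to 4, 98.9% had the opposite sign in replicate 1, so the positions are not particular to the members. Without either library of replicate 1, or without both, 7 members were called, where 41.3% of all tested genes were called without both. A replicate 1 library left alone in its layout is fitted exactly. These results therefore repeat the fit of replicates 2 to 4 and are not separate checks.

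Levels of different genes were compared per kilobase of annotated exon, since longer genes collect more reads. The length joins all annotated exons of a gene, 4040 bases for ATF3 and 12333 for CREBRF, whose longest transcripts have 2103 and 7778. Which transcripts these cells use was not examined, so the order of genes with close values depends on the length chosen. In the single-end DMSO libraries ATF4 had 147 CPM per kilobase, CEBPG 32.9, CEBPB 16.8 and ATF5 7.87. TRIB3 (3.38) and DDIT3 (3.14) came next and their ranges overlapped, followed by ATF3 (1.9), JDP2 (1.21) and CREBRF (0.436). With CR31B the order of the top 3 was the same, at 191 CPM per kilobase for ATF4, 51 for CEBPG and 40.8 for CEBPB. TRIB3 (7.49) then stood within the range of ATF5 (7.56), and ATF3 (4.29) overlapped with DDIT3 (4.02). JDP2 reached 2.44 and CREBRF 0.434 CPM per kilobase.

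**Figure D3:**
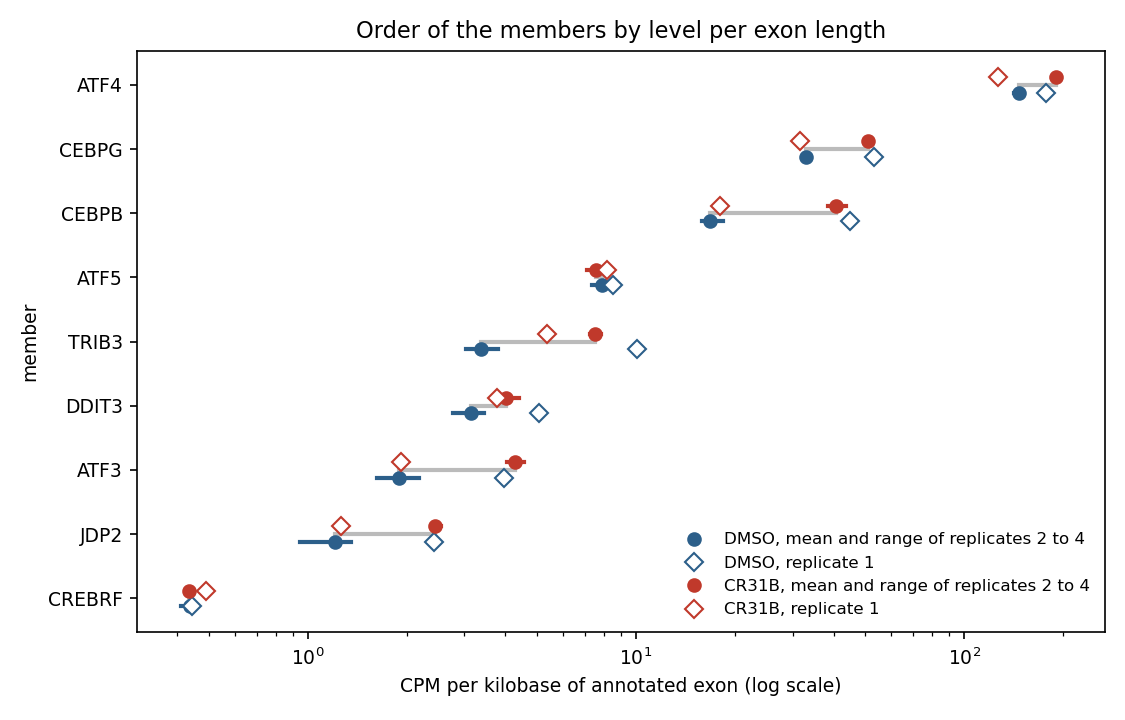
CPM per kilobase of annotated exon (horizontal axis, log scale) for 9 genes, as the mean and range of replicates 2 to 4 (filled points and bars) and replicate 1 (open diamonds), with grey lines joining the group means. ATF4 lies highest, from 147 (DMSO) to 191 (CR31B), and CREBRF lowest, at 0.436 and 0.434.

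Ratios between members were also taken within each library. The ratio of CEBPB to CEBPG, both per kilobase, was 0.483, 0.493 and 0.552 with DMSO and 0.763, 0.771 and 0.868 with CR31B in replicates 2, 3 and 4. In log2 the CEBPB difference exceeded that of CEBPG by 0.66, 0.64 and 0.65 in these pairs, and by -0.57 in pair 1. The ratio of TRIB3 to ATF4 was 0.0252, 0.0214 and 0.0221 with DMSO and 0.0396, 0.0386 and 0.0392 with CR31B, again without overlap. The ratio of DDIT3 to ATF4 overlapped between groups, at 0.0212, 0.0243 and 0.0185 with DMSO and 0.0186, 0.0228 and 0.0217 with CR31B. ATF3 and its relative JDP2 rose together, and their ratio was 1.71, 1.42 and 1.61 with DMSO and 1.7, 1.8 and 1.77 with CR31B. These ratios describe the libraries and were not tested.

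Around the factors, 50 genes that ATF4 is known to drive were examined in the fit of replicates 2 to 4, of which 46 could be tested. Of these, 39 were called higher and 2 lower, against 23.8% and 17.6% of all tested genes, and their median log2 fold change was 0.56. This list and those below were chosen with earlier results of these data known, so their counts are not independent checks. CHAC1, a glutathione-degrading enzyme, had 24.1 ± 2.12 CPM (SD, n = 3) with CR31B and 3.03 ± 0.325 CPM with DMSO, a log2 fold change of 2.99 ± 0.11. SLC7A11, the cystine importer, had a log2 fold change of 2.29, SLC6A9, a glycine transporter, of 1.88, and the mTORC1 brakes SESN2 and DDIT4 of 1.76 and 1.71. At the other end SQSTM1, an autophagy receptor, had 37.8 ± 1.74 CPM with CR31B and 82 ± 6.32 CPM with DMSO and fell with a log2 fold change of -1.11 (adjusted p of 1.64e-06, edgeR, Benjamini-Hochberg). MAP1LC3B, another autophagy gene of the list, fell by 0.34 on the log2 scale (adjusted p of 0.000925, same test), and CBS had a value of -0.08 that did not pass. In replicate 1 the sign was opposite for 41 of the 41 called targets, as it was for 98.9% of all 6901 called genes.

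**Figure D4:**
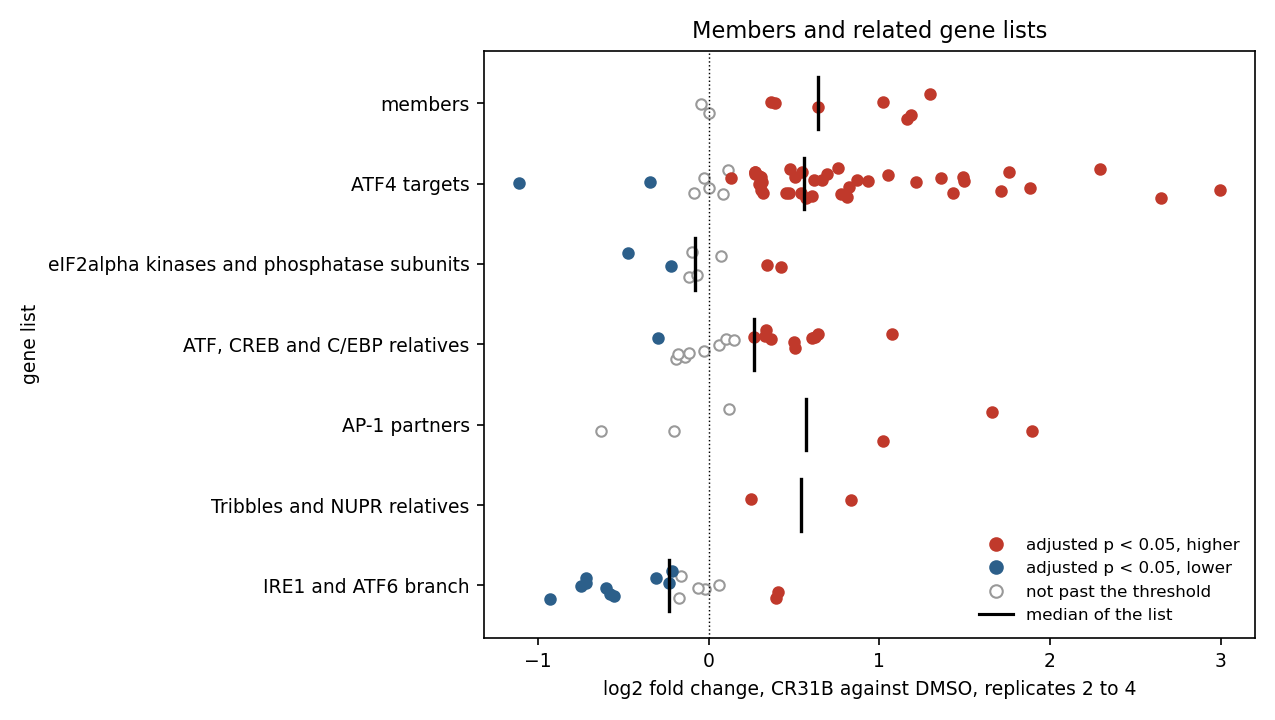
Log2 fold change in replicates 2 to 4 (horizontal axis, CR31B against DMSO) of every tested gene in 7 lists (rows), with genes past an adjusted p of 0.05 in red (higher) or blue (lower), others as open grey points, and the list median as a black line. The members and the ATF4 targets lie mostly to the right, with medians of 0.64 and 0.56, and the IRE1 and ATF6 branch mostly to the left, with a median of -0.23.

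Upstream of ATF4, 8 genes for eIF2alpha, its kinases, its phosphatase subunits and its exchange factor were examined. In replicates 2 to 4, 2 were higher, 2 lower and 4 not called, with a median log2 fold change of -0.08. With 23.8% of all tested genes higher and 17.6% lower, these counts lie near the background. PPP1R15B, the constitutive phosphatase subunit, rose by 0.43 and EIF2S1, which encodes eIF2alpha itself, by 0.34 (log2). PPP1R15A, the stress-induced subunit that ATF4 and CHOP are known to drive, fell from 29 ± 1.92 CPM with DMSO to 20.7 ± 1.16 CPM with CR31B (SD, n = 3), a log2 fold change of -0.47 (Benjamini-Hochberg adjusted p = 0.000503, edgeR). The heme-sensing kinase gene EIF2AK1 fell by 0.22, and EIF2AK2 (0.07), EIF2AK3 (-0.10), EIF2AK4 (-0.11) and EIF2B5 (-0.07) did not pass. With GC and length offsets, or with upper quartile scaling, 4 of the 8 were lower. Upper quartile scaling also lowered the share of higher genes among all calls, from 57.5% to 40%.

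IRE1 and ATF6 lead the other branches of the unfolded protein response. Of 17 genes of these branches 10 were lower, 2 higher and 5 not called, where 17.6% of all tested genes were lower and 23.8% higher, and their median log2 fold change was -0.23. The count of lower genes was 10 to 13 over the other scalings, filter, block and offsets tried. Upper quartile scaling, with 13 lower, also gave more lower genes over all tested genes, with 40% of calls higher in place of 57.5%. The chaperone gene HSPA5 fell from 560 ± 59.1 to 291 ± 33.1 CPM (SD, n = 3), a log2 fold change of -0.93, and PDIA4, a disulfide isomerase, by 0.75 on the log2 scale. HERPUD1, a degradation factor that ATF4 can also induce, and ERN1, which encodes IRE1, were the 2 higher genes, at 0.39 and 0.41.

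Relatives of the members were also examined. Of 19 tested ATF, CREB and C/EBP relatives 10 were higher and 1 lower in replicates 2 to 4, beside 23.8% and 17.6% of all tested genes, led by NFIL3 (1.07) and HLF (0.64), with TEF lower (-0.29) and ATF6B at -0.19 not called. Over the other scalings, filter, block and offsets tried, 8 to 10 relatives were higher and 1 to 5 lower. The background moved as well. With upper quartile scaling, where 5 relatives were lower, 40% of the 7519 calls over all genes were higher, against 57.5% of 6901 in the main fit. Of 6 tested AP-1 partners of ATF3 and JDP2, 3 were higher, beside 23.8% of all tested genes, with JUN (log2 fold change of 1.89) and FOSL2 (1.66) first, while JUND (0.12) and FOS (-0.21) did not pass. TRIB1 and TRIB2, the paralogs of TRIB3, rose by 0.84 and 0.25.

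The genes were chosen by symbol and not by promoter sequence. ATF4 is known to act through the C/EBP-ATF response element, so its presence in members and known targets is not independent of their choice as branch genes. RefSeq promoters (GRCh38.p14, 250 bases before to 50 after each annotated start) were found for 9 of the 10 genes, with 20 starts in all, and were searched on both strands for the core of the C/EBP-ATF response element. TGATGCAA occurs in the promoters of CEBPG and JDP2, 2 of 9 genes, and in 1.08% of 27305 genes with a promoter in the table. Of the 38 ATF4 targets with a promoter, 10 hold it. A looser form, TGATGNAA, which includes the first, is also found in ATF3, so 3 of 9 genes hold it against 4.46% of all genes. The AP-1 site TGANTCA occurs in ATF5 and DDIT3, 2 of 9 genes against 9.37% of all, and the cyclic AMP element TGACGTCA in none of the 9 against 2.25%. Genes with more than 1 start have more chances of a match. The stretches of the promoters of CEBPG, JDP2 and ATF3 that lie outside annotated exons are shown because they hold the response element, given in capitals, 5′ to 3′ along the plus strand.
CEBPG, chr19:33373896-33374112, ending at the base before the second listed start: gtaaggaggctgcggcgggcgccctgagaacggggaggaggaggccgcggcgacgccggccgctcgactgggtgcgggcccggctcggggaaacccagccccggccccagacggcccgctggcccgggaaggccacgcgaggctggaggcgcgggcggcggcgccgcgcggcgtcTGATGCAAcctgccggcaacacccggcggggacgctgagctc
JDP2, chr14:75427850-75428021, ending at the base before the second listed start: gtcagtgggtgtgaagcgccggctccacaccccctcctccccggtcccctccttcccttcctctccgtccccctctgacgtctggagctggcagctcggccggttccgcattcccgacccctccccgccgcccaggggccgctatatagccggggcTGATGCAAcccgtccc
ATF3, chr1:212565157-212565333, upstream of the first listed start: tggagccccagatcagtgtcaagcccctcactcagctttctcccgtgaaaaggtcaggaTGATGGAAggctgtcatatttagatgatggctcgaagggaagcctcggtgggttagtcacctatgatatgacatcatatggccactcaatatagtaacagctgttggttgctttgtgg

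In CEBPG the element lies at -42 to -35 from that start and in JDP2 at -16 to -9, both with the same 8 letters on the plus strand, and in ATF3 at -191 to -184. Over the whole table, 44.7% of the 85 tested genes with TGATGCAA in a promoter were called higher in replicates 2 to 4, against 27.3% of the 11359 tested genes with a promoter that lacks it. The 85 genes had a median log2 fold change of 0.232, and the genes without the core 0.0135. The 85 include genes of the lists above, so these shares are not independent of the choice of those lists. Next to CHAC1, JDP2 and CEBPG, the listed genes that hold the core included the amino acid transporters SLC1A4 (0.69) and SLC1A5 (0.57). The tRNA synthetase genes among them were AARS1 (0.81), NARS1 (0.61), CARS1 (0.51), TARS1 (0.31), MARS1 (0.31) and IARS1 (0.27). PPP1R15B (0.43) and HERPUD1 (0.39) also hold it. All these are log2 fold changes called in replicates 2 to 4. A match describes letters in a window and is not a measured binding site.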

How the data were processed

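Polyadenylated RNA of 8 IMR32 libraries was measured by sequencing. The authors deposited 1 table of raw counts per Ensembl gene, not normalised and not pooled. Per the submitters' processing notes, FastQC 0.11.7, STAR 2.7.2b, edgeR 3.36.0, limma 3.50.3 and build GRCh38 were used. The counting tool and strand setting are not given in the sources used here. Per the labels' protocols a small RNA library kit was used. The column for CR31B replicate 4 has a header without its first letter, and the remaining letters identify it. Coordinates are those of GENCODE 29 by identifier.

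The tests used the quasi-likelihood method of edgeR 4.0.16 under R 4.3.3 (two-sided, filterByExpr, TMM, Benjamini-Hochberg over all tested genes, threshold 0.05). All 8 libraries were fitted with layout as a covariate, the 6 single-end libraries alone, and an interaction of treatment with layout over 8. A 95% interval is the estimate and its SE with the t quantile of the fit. The design text calls the replicates biological but names no separate cultures, so p-values measure the spread between these libraries, which may be technical. No libraries were duplicates (smallest mean chi-square per gene 7.16). Same-numbered single-end libraries deviated together (correlations of 0.206, 0.384 and 0.157), and the numbers were read as pairs. Differently numbered libraries were not correlated for comparison, so this pairing is not established. The main p-values, SEs and intervals come from fits that leave this pairing out. With replicate number as a block in replicates 2 to 4, 8540 genes were called in place of 6901, and the SE of CEBPB was 0.043 in place of 0.075. Depth was 43687828 to 64715535 counts per library, and the limit given for a count of 0 covers counting error only.

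The members, lists and tests were chosen with earlier results of these data known. Named were all 10 members, the 5 highest and 3 lowest ATF4 targets with a mean of at least 1 CPM, every eIF2alpha gene and the 2 highest and 2 lowest of other lists. The synthetase and transporter genes beside the promoters were named after their values were seen. Alternatives were 3 other scalings, 2 other filters, DESeq2 1.42.0, a replicate block, GC and length offsets, no layout term, and leaving out libraries or pairs. On simulated counts for 16696 genes, 99 of 100 genes changed by 1 (log2) and 89 of 100 changed by 0.5 were recovered in the single-end design, with 11 false calls among 199. For the interaction, on 16518 genes, 84 of 100 changed by 1 and only 13 of 100 changed by 0.5 were recovered, with 4 false calls among 101. The simulation used the same fixed dispersion for every gene and changed only well-counted genes. It changed far fewer genes than were called in the data. Some of the cell type markers examined are not reported here.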

Additional observations from a re-analysis of the deposited data

Results flagged for a closer look

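The difference between CR31B and DMSO in replicate 1 departed from that of replicates 2 to 4 in 7 members by the interaction test (edgeR, Benjamini-Hochberg). Replicate 1 minus the others was -0.85 for ATF4, -2.22 for ATF3, -0.77 for DDIT3, -2.60 for CEBPB, -1.38 for CEBPG, -2.06 for TRIB3 and -1.95 for JDP2 on the log2 scale. Layout and replicate 1 are the same libraries and cannot be told apart.

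Single libraries also stood far from the other 3 of their group, by Dixon's test at the 95% level. The ratio of the gap beside that library to the whole spread of its 4 was 0.916 for CEBPB, 0.956 for CEBPG and 0.888 for TRIB3 in the DMSO group, and 0.911 for CEBPG and 0.863 for JDP2 in the CR31B group. In all 5 the distant library was replicate 1. Of 18 groups examined 5 passed, where chance gives about 1 in 20. These groups share libraries and are not independent.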

How the results depend on the processing

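With all 8 libraries 0 members were called under each scaling, filter, tool and model tried, the replicate block included (0), and 7 were called without replicate 1. Leaving out single libraries or pairs gave 0 to 7. In replicates 2 to 4, 6 to 8 members were called, and 7 with the replicate block. Over the same settings 3981 (without pair 4) to 8540 (replicate block) of all tested genes were called. The setting with 8 members, replicate block with offsets, called 8434 genes, where the main fit called 6901. ATF4, ATF3, CEBPB, CEBPG, TRIB3 and JDP2 passed in all 18 alternatives, and DDIT3 in 8 of the 17 that test it, since a filter at 5 CPM drops it. The replicate block ended or added no call on a member by itself. ATF5, near 0, changed sign to 0.051 with GC and length offsets, with and without the block, and ranged from -0.12 to 0.022 when libraries or pairs were left out, above 0 without DMSO replicate 2 (0.0032) or replicate 2 (0.022). CREBRF changed sign to -0.0065 (RLE), -0.090 (upper quartile), -0.073 (total counts), -0.0067 (no filter), -0.033 (filter at 5 CPM), -0.0068 (DESeq2) and -0.25 (both offset fits), and ranged from -0.023 to 0.0365 when libraries or pairs were left out, below 0 without CR31B replicate 2 (-0.0155), DMSO replicate 4 (-0.023) or replicate 4 (-0.0176). In 8 libraries with offsets CREBRF was -0.082. The eIF2alpha genes called lower rose to 4 with upper quartile scaling and with offsets, and the relatives called lower to 5 with upper quartile or total count scaling and to 3 with no filter, the replicate block or offsets. The share of higher calls among all genes was 57.5% with TMM, 55.3% with RLE, 40% with upper quartile and 43.1% with total counts, and upper quartile scaling moved the median of all genes in the interaction from 0.023 to 0.23 (log2). The interaction could not be fitted without a replicate 1 library.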
